A study of Rattus norvegicus with 6 samples.

Results

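The uroplakins and 4 transcription factors of the urothelium were followed gene by gene in the inner medulla (IM) tip of rats with streptozotocin (STZ) diabetes. Of the 10 genes listed, Upk1a, Upk1b, Upk2, Upk3a, Upk3b, Grhl3, Tp63, Gata3 and Pparg were each found as a single row among the 27321 features of the deposited table, which makes 9 members, and Psca was not analysed here. The genes were selected on their place in the urothelium and on the change already seen in these libraries, in which Upk3a is among the largest increases. Adjusted p-values of the members therefore only place each gene within the fit over all features and are no independent evidence. Libraries came from the terminal portion of the IM of male Sprague-Dawley rats (3 months of age at purchase, about 150 g). Controls received citrate vehicle and the others 62.5 mg/kg of STZ, a toxin of pancreatic beta cells, through the tail vein, and tissue of both was collected on day 15, for 3 libraries in each group. Diabetes in this model is chemical, whole tissue was sequenced, and the labels number the libraries 1 to 3 in each group without saying whether tissue of several rats was pooled.

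Uroplakins are membrane proteins that cover the apical surface of the urothelium, the lining of the renal pelvis, ureter and bladder, in rigid plaques that hold back water and solutes. The tetraspanin of Upk1a pairs with the single-span protein of Upk2, and the tetraspanin of Upk1b with that of Upk3a or, as an alternative, of Upk3b. The surface of the papilla, of which the IM tip is a part, carries an epithelium that is continuous with the pelvic urothelium, while the bulk of the tissue is collecting duct, thin limb, interstitium and vessels. In whole tissue, a change in the number of cells of a type and a change in RNA per cell cannot be told apart.

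For the 3 members with an adjusted p under 0.05, promoter windows from 250 bases before to 50 bases after the RefSeq start are shown because these genes differed most between the groups. They are on GRCr8, a later assembly than the rn4 of the counts. RefSeq windows were found for 8 of the 10 listed genes, and Pparg has a pair of starts. The 4 motifs searched on both strands were AGGTCA, the core site of PPAR gamma and other nuclear receptors, GATAA of GATA factors, ACCGGT of grainyhead-like factors and CCACACCC of Kruppel-like factors, and a match is in capitals. Upk3a lies at chr7:118014540-118014839 (+ strand), Upk1b at chr11:75459131-75459430 (+ strand), and the Pparg starts at chr4:150096808-150097107 and chr4:150154522-150154821 (+ strand).
Upk3a: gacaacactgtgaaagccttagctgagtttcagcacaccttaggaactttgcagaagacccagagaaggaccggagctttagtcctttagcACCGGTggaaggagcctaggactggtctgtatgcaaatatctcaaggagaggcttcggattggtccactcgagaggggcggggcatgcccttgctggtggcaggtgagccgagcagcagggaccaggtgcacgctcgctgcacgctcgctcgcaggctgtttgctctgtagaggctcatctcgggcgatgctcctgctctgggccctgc
Upk1b: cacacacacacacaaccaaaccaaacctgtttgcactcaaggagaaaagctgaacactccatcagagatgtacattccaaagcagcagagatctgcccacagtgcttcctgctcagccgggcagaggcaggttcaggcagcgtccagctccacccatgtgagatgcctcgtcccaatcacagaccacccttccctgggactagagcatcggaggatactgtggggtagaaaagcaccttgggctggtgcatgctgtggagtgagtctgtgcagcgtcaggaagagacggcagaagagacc
Pparg, start 1: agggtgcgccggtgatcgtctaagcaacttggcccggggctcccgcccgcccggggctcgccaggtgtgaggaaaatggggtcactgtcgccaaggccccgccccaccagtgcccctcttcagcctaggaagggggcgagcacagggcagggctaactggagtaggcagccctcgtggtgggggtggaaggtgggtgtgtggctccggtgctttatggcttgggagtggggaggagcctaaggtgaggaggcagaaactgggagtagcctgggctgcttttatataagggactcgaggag
Pparg, start 2: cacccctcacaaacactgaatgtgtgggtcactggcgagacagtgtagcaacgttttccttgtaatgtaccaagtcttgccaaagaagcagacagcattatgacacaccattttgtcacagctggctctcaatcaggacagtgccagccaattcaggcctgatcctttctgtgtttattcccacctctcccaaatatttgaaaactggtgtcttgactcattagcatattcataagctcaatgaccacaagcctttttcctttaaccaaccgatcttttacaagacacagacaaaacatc
The sole match in all 9 windows of the members was ACCGGT in Upk3a, which begins 159 bases before the start. Among all 33469 RefSeq windows, 2.26% held ACCGGT, 16.2% AGGTCA, 26.5% GATAA and 3.22% CCACACCC. A match describes letters and not a bound site.

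Reads on features numbered between 3412311 and 5575171 per library, and the values below are normalized counts, that is reads divided by the size factor of the library, with no division by gene length. The reads of different genes are therefore not compared as levels. A log2 fold change is the STZ minus the control mean of log2(normalized count + 1) in limma, a scale that understates the change of low genes. Lane 3 held all control libraries, whereas STZ replicates 1, 2 and 3 were on lanes 7, 6 and 8, and the effects of lane and STZ cannot be told apart in any value below. Among genes of the collecting duct, Fxyd4, a regulator of the sodium pump, had 21951 to 46287 normalized counts per library. Hsd11b2, of the same list, had 21.4 to 57.4. Limma called 283 of 13486 tested features at an adjusted p under 0.05, or 2.10% (1.17% higher and 0.927% lower in STZ rats), and 14.7% had an unadjusted p under 0.05. As alternatives, edgeR called 287 and DESeq2 597 features.

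Of the 9 members, 3 were higher in STZ rats (Upk3a, Pparg and Upk1b), 0 were lower and 6 did not pass, against the 1.17% of all features that were higher. In 4 members the lowest STZ value exceeded the highest control value, and over all tested features 20.3% had groups that did not overlap in one direction or the other. Nothing is read from these counts, since the members were chosen with the comparison known. With 3 libraries against 3, an exact permutation test of a single gene cannot give a two-sided p below 0.1.

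**Figure D1:**
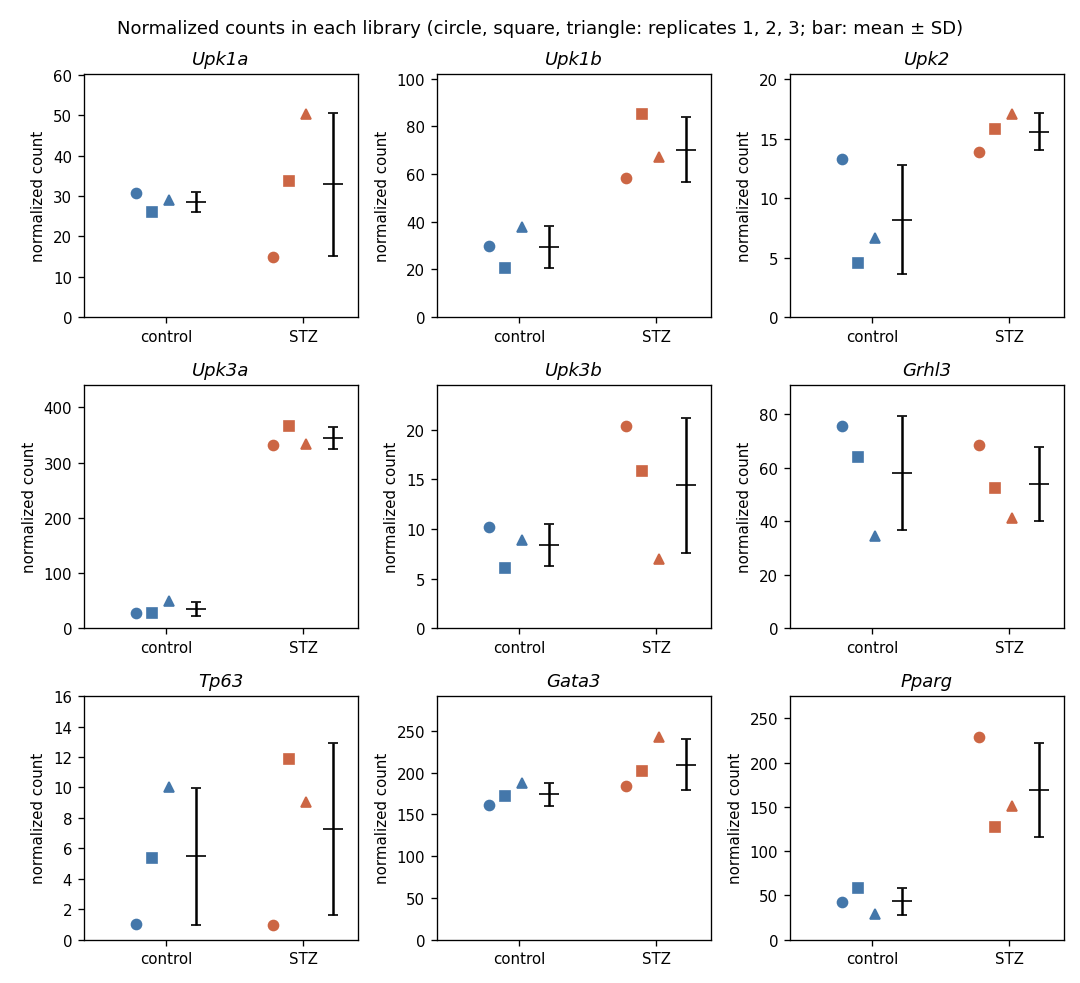
Normalized count (y axis, from 0) of each of the 9 genes in the 3 control and 3 STZ libraries, with circles, squares and triangles for replicates 1, 2 and 3 and black bars for the mean ± SD of 3 libraries. Upk3a and Pparg show the widest gaps between the groups, whereas the values of Upk1a, Upk3b, Grhl3, Tp63 and Gata3 overlap.

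Upk3a occupies chromosome 7 of rn4 from 123032772 to 123037846. Replicates 1, 2 and 3 of the control group held 27.7, 28.2 and 50.1 normalized counts and those of the STZ group 332, 367 and 333, and values are given in this order throughout. The groups were far apart and the STZ values close to each other, with a coefficient of variation of 5.72% against 36.2% in control rats. Mean values of 35.3 ± 12.8 and 344 ± 19.7 (SD, n = 3 each) gave a ratio of 9.74. The log2 fold change was 3.30 (SE 0.25, 95% interval 2.75 to 3.85, adjusted p = 0.000117 by limma) and stood 11th from the top among the 13486 features tested. These values rest on 27 to 45 reads per control library and 332 to 371 reads per STZ library. Leaving out any single library kept the log2 fold change between 3.16 and 3.57.

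Upk1b, the tetraspanin partner of Upk3a, lies on chromosome 11 from 63729051 to 63767350. It had 29.7, 20.6 and 37.8 normalized counts in the control libraries and 58.5, 85.1 and 67.3 in the STZ libraries. All STZ values were above all control values, by much less than for Upk3a. The means were 29.4 ± 8.63 and 70.3 ± 13.5 (SD, n = 3 each), with a log2 fold change of 1.25 (SE 0.28, 95% interval 0.63 to 1.88) and an adjusted p of 0.0489 by limma, just under the threshold. The adjusted p was 0.11, 0.194 and 0.0247 without control replicate 1, 2 or 3, and 0.0807, 0.204 and 0.116 without STZ replicate 1, 2 or 3, so the call was lost in 5 of these 6 fits while the log2 fold change ran from 1.03 to 1.45. It was also lost with a minimum mean of 1 (0.0607), equal library totals (0.0767) and limma without the intensity trend (0.169).

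Neither gene of the other pair passed. Upk1a is a gene of chromosome 1 (85654293 to 85664951). It had 30.8, 25.9 and 28.9 normalized counts in the control libraries and 14.9, 33.6 and 50.2 in the STZ libraries. The control values were nearly equal, and the STZ values lay on both sides of them. Its means were 28.5 ± 2.43 and 32.9 ± 17.7 (SD, n = 3 each), the log2 fold change was 0.04 (SE 0.39, 95% interval −0.82 to 0.91, adjusted p = 0.979 by limma), and its sign turned without control replicate 2 (−0.02), STZ replicate 2 (−0.05) or STZ replicate 3 (−0.33). Upk2, the partner of Upk1a, lies on chromosome 8 from 47420702 to 47422695. It had 13.3, 4.58 and 6.68 normalized counts in the control libraries and 13.9, 15.8 and 17.1 in the STZ libraries, on 6 to 17 reads per library. The STZ values were all above the control values, but control replicate 1 came close to STZ replicate 1. The log2 fold change of 0.96 (SE 0.47, 95% interval −0.06 to 1.99) had an adjusted p of 0.377 by limma.

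Within a library, the ratio of 2 genes shows unequal change without the length of either. The ratio of Upk3a to Upk1b reads was 0.931, 1.37 and 1.32 in the control libraries and 5.68, 4.31 and 4.96 in the STZ libraries, so this ratio was higher in every STZ library than in any control library. The ratio of Upk1b to Upk1a, the 2 tetraspanins, was 0.967, 0.794 and 1.31 in control rats and 3.94, 2.53 and 1.34 in STZ rats. STZ replicate 3 was close to control replicate 3 in this ratio and the other STZ libraries were not. These ratios come from the same comparison that the genes were chosen with and were not tested.

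Upk3b is a gene of chromosome 12 (21746693 to 21752737). It had 10.3, 6.1 and 8.9 normalized counts in the control libraries and 20.4, 15.8 and 7.03 in the STZ libraries. Its STZ replicate 3 was below control replicates 1 and 3, and the groups overlapped. The log2 fold change was 0.62 (SE 0.49, 95% interval −0.46 to 1.71, adjusted p = 0.649 by limma), on 7 to 22 reads per library. Upk3b and Upk2 were above the 95th percentile of 835 olfactory receptor genes, taken as background with no account of length, in 3 and 4 of the 6 libraries, while Upk1a, Upk1b and Upk3a were above it in all 6.

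Summed over the 5 uroplakins, the normalized counts came to 112, 85.4 and 132 in the control libraries and 440, 517 and 475 in the STZ libraries. Upk3a made up 24.8%, 33.0% and 37.8% of this sum in control replicates 1, 2 and 3 and 75.5%, 70.9% and 70.2% in the STZ libraries. Without Upk3a the sums were 84.1, 57.2 and 82.4 in control and 108, 150.3 and 142 in STZ rats. Most of the difference in the sum was therefore that of 1 gene.

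**Figure D2:**
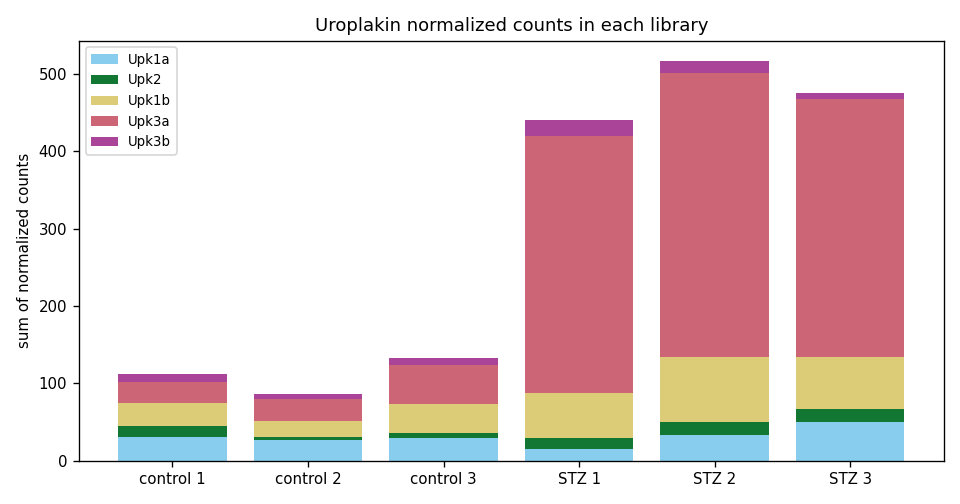
Normalized counts of the 5 uroplakins stacked for each library (y axis, from 0, not divided by gene length). Upk3a fills 70.2% to 75.5% of the STZ bars and 24.8% to 37.8% of the control bars.

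Of the 4 urothelial transcription factors, 1 passed in STZ rats. Pparg, a nuclear receptor of fatty acid ligands that promotes urothelial differentiation and adipogenesis, lies on chromosome 4 from 151493446 to 151617331. It had 42.0, 58.7 and 28.9 normalized counts in the control libraries and 229, 128 and 152 in the STZ libraries. Each STZ value was above every control value, and STZ replicate 1 was the highest. Which cells of the whole tissue held the Pparg RNA, urothelial or other, was not determined. From 43.2 ± 14.9 to 169.5 ± 53.2 (SD, n = 3 each) the mean rose by a ratio of 3.92, with a log2 fold change of 1.96 (SE 0.30, 95% interval 1.30 to 2.62, adjusted p = 0.00867 by limma). Leaving out any single library gave an adjusted p between 0.012 and 0.0313, and limma without the intensity trend gave 0.11.

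Gata3, a zinc finger factor of the urothelium that the collecting duct also expresses, is on chromosome 17 from 79991586 to 80011574. It had 161, 172 and 188 normalized counts in the control libraries and 184, 202 and 243 in the STZ libraries. STZ replicate 1 was below control replicate 3, so values overlapped, with a log2 fold change of 0.26 (SE 0.19, 95% interval −0.16 to 0.68, adjusted p = 0.608 by limma). Grhl3, a grainyhead-like factor of the terminal stages of barrier epithelia, is on chromosome 5 from 154312654 to 154344656. It had 75.9, 64.1 and 34.5 normalized counts in the control libraries and 68.7, 52.4 and 41.2 in the STZ libraries. All 3 STZ values fell within the range of the control values, and the log2 fold change was −0.06 (SE 0.32, 95% interval −0.76 to 0.64, adjusted p = 0.97 by limma). Its sign turned without control replicate 1 (0.17), control replicate 2 (0.05) or STZ replicate 3 (0.12).

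Tp63, the factor of basal cells in stratified and transitional epithelia, is on chromosome 11 from 76902838 to 77200251. It had 1.03, 5.34 and 10.02 normalized counts in the control libraries and 0.929, 11.9 and 9.03 in the STZ libraries, from 1 to 12 reads. Replicate 1 of both groups was the lowest. Among the olfactory receptor genes the 95th percentile was 2.05, 6.33 and 10.02 in the control libraries and 1.86, 5.93 and 9.03 in the STZ libraries, and Tp63 was above it in 1 library only, STZ replicate 2. The log2 fold change of 0.27 (SE 0.92, 95% interval −1.76 to 2.31, adjusted p = 0.95 by limma) does not settle the sign of a change. This estimate turned negative without control replicate 1 (−0.41), STZ replicate 2 (−0.24) or STZ replicate 3 (−0.06).

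**Figure D3:**
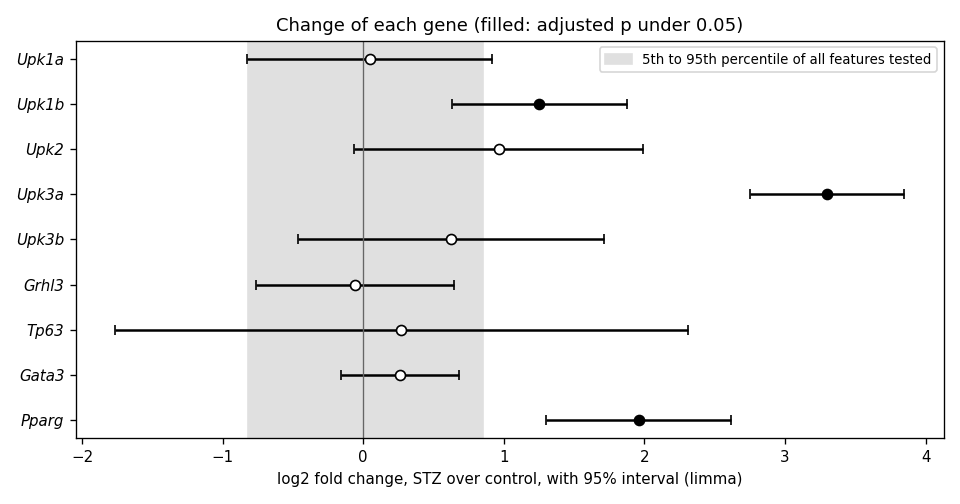
Log2 fold change of each gene, STZ over control, with its 95% interval by limma (x axis), against the 5th to 95th percentile of all 13486 features tested in grey (−0.82 to 0.86). Upk3a, Pparg and Upk1b, drawn filled, had an adjusted p under 0.05, and the interval of Tp63 is the widest.

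Of the genes that carry uroplakins to the apical membrane, 8 of 11 listed were matched and 7 tested. By limma 0 of the 7 passed, with 0 at an unadjusted p under 0.05 and 0 called by edgeR or DESeq2, and the median log2 fold change was −0.05 against 0.01 over all features tested. In 2 of the 7, Vamp8 and Stx3, every STZ value was below every control value. Over all tested features 20.3% had groups that did not overlap, in either direction. Mal, a proteolipid of apical transport, averaged 13567 ± 1947 normalized counts across control and 11822 ± 2658 across STZ libraries (SD, n = 3 each), and Rab11a, a GTPase of recycling endosomes, had 914 ± 258 and 1226 ± 262. Rab27b, a GTPase linked to uroplakin vesicles, was at 0.929 to 3.34 normalized counts in all libraries and was not tested.

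Of 10 urothelial keratins, 7 were matched and 4 tested, and by limma 0 passed. At an unadjusted p under 0.05 there was 1 of the 4, against 14.7% of all tested features. By edgeR 0 were called and by DESeq2 1, where DESeq2 called 597 features in all. Krt8, a keratin of simple epithelia, had 349, 299 and 306 normalized counts in the control libraries and 525, 686 and 405 in the STZ libraries. Every STZ value of Krt8 was above every control value, but with a log2 fold change of 0.73 (SE 0.21) its adjusted p by limma was 0.122. Krt13, Krt14 and Krt17, keratins of stratified or basal epithelial cells, were between 0 and 5.57 normalized counts in every library, whereas Krt5 and Krt20 were not analysed here.

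All 11 of the other epithelial transcription factors were matched and 9 were tested. Of these 0 were higher, 1 was lower (0.927% of all features were lower) and 8 did not pass, with a median log2 fold change of 0.07. At an unadjusted p under 0.05 there were 3 of the 9, against 14.7% of all tested features. Klf4, a Kruppel-like factor of barrier epithelia, had 87.1, 98.4 and 111 normalized counts in the control libraries and 23.2, 33.6 and 37.1 in the STZ libraries. All STZ values were far under the lowest control value, and the fitted log2 difference was −1.65 (SE 0.25) at an adjusted p of 0.0084 by limma. Klf5, its relative in proliferating epithelium, had 66.0 ± 9.79 and 98.2 ± 12.2 normalized counts (SD, n = 3 each), with no overlap and an adjusted p of 0.234 by limma. Elf3, an epithelial Ets factor, had 3277 ± 1182 and 4336 ± 550.4, and Foxa1, a forkhead factor of the urothelium, was at 1.03 to 3.34 normalized counts in all libraries and was not tested.

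Of 9 target genes of PPAR gamma, 8 were matched and tested. In STZ rats 1 was higher (1.17% of all tested features were), 0 were lower and 7 did not pass, with a median log2 fold change of 0.23. DESeq2 also called 1 and gave no adjusted p for 3 of the 8. Lpl, lipoprotein lipase, had 166, 261 and 171 normalized counts in the control libraries and 880, 567 and 419 in the STZ libraries. The groups did not overlap, STZ replicate 1 was the highest as for Pparg, and its log2 fold change of 1.60 passed (SE 0.28, adjusted p = 0.017 by limma, 0.0577 without control replicate 1 and 0.0574 without STZ replicate 2). Fabp4, a fatty acid binding protein, had 659 ± 346 and 509 ± 83.3 normalized counts (SD, n = 3 each), and Plin2, a lipid droplet protein listed as Adfp, had 1104 ± 104 and 1186 ± 133. Cidec, a lipid droplet protein of fat cells, had 11.3, 8.39 and 8.90 normalized counts in the control libraries and 1.86, 2.97 and 6.02 in the STZ libraries. Its STZ values were all below the control values, opposite in sign to Lpl, and the fitted log2 difference was −1.28 (SE 0.62), for which limma gave an adjusted p of 0.373. Cidec had at most 11 reads per library and was above the olfactory receptor percentile in control replicates 1 and 2 only. Angptl4 had 293, 281 and 267 normalized counts in the control libraries and 335, 440 and 310 in the STZ libraries. These groups did not overlap, with a log2 fold change of 0.35 (adjusted p = 0.443 by limma).

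Of 9 cornified and junctional barrier genes, 8 were matched and 7 tested. By limma 0 passed, with 2 at an unadjusted p under 0.05 (14.7% of all tested features were) and 0 called by edgeR or DESeq2. DESeq2 gave no adjusted p for 1 of the 7. Sprr1a, a precursor of the cornified envelope, was highest among them in log2 fold change at 1.76 (SE 0.64, adjusted p = 0.212 by limma), with 66.6, 11.4 and 6.68 normalized counts in the control libraries and 88.2, 51.4 and 53.2 in the STZ libraries. Control replicate 1 lay within the STZ range. Ppl had 137 ± 13.8 and 194 ± 9.49 normalized counts (SD, n = 3 each). Every STZ value of Ppl was above every control value, with an adjusted p of 0.221 by limma. Cldn4, a claudin of tight junctions, had 764 ± 140 and 827 ± 90.7 (SD, n = 3 each).

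**Figure D4:**
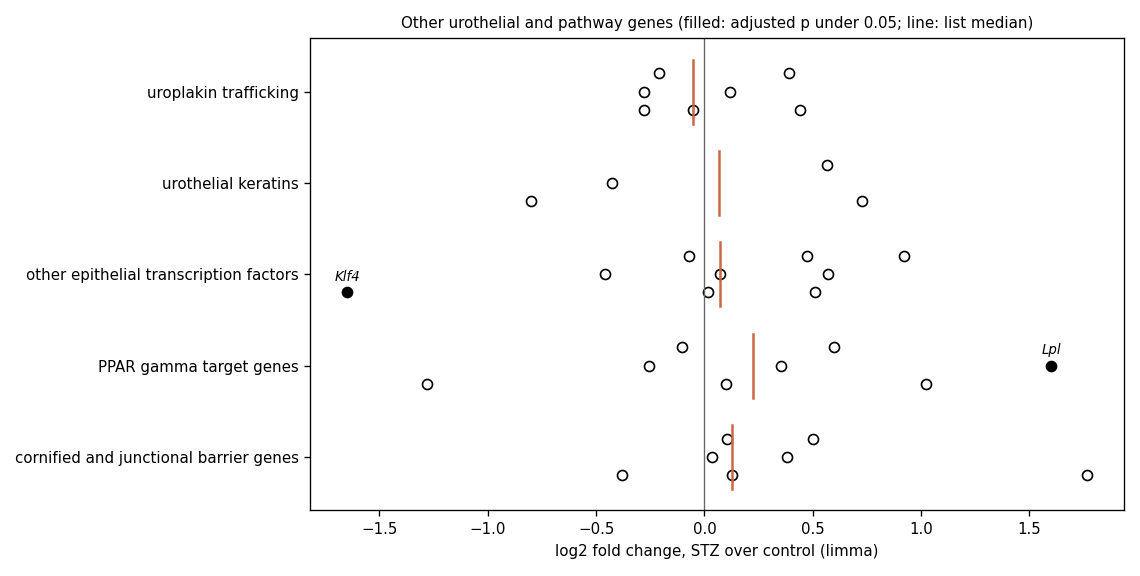
Log2 fold change of each tested gene in 5 lists of related genes, STZ over control by limma (x axis), with filled points for an adjusted p under 0.05 and a line at the median of each list. Klf4 (−1.65) and Lpl (1.60) are the filled points.

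The nearest tested and annotated gene was taken on each side of the 9 members. By limma 0 of these 18 neighbours had an adjusted p under 0.05, with 4 at an unadjusted p under 0.05 (14.7% of all tested features were), 0 called by edgeR and 1 by DESeq2. The one is Upk3bl, a uroplakin 3b-like gene 15132 bases from Upk3b on chromosome 12, from 21725547 to 21731561. Upk3bl had 2703, 2055 and 1991 normalized counts in the control libraries and 3383, 3175 and 4163 in the STZ libraries. Every STZ value was above every control value, and the fitted log2 difference was 0.67 (SE 0.21), where limma gave an adjusted p of 0.142 and DESeq2 0.0203. The neighbours of Upk3a, RGD1304694 and Fam118a, had log2 fold changes of 0.86 (adjusted p = 0.152 by limma) and 0.03 (adjusted p = 0.982).

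The features most like Upk3a over the 6 libraries were found by the root mean square difference of their log2 values, each centred on its own mean. The 5 closest were Postn (0.32), a matrix protein, the merged feature of Lrrc61 and Rarres2 (0.33), Tm4sf20 (0.44), the chemokine Ccl20 (0.47) and CP4B1_RAT (0.51), where the values are differences on the log2 scale. With a pseudocount of 5, 3 of the 5 were the same. Postn had 2.05, 0.763 and 3.34 normalized counts in the control libraries, all at or under 3 reads, and 27.9, 42.5 and 24.1 in the STZ libraries. Reads of Lrrc61 and Rarres2 cannot be separated in their feature, which had 629 ± 109 and 4223 ± 351 normalized counts (SD, n = 3 each). Pparg stood 63rd (0.91), Upk1b 119th (1.04) and Upk1a 6811th (1.72) of 13485 features in this order. Upk2 stood 536th, Upk3b 1442nd, Gata3 2846th, Grhl3 8665th and Tp63 8894th. From the highest log2 fold change, Pparg, Upk1b and Upk1a ranked 71st, 224th and 6244th. The order thus largely restates the group difference that the members were chosen with, and is no independent evidence.

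Markers of other cell types also differed between the groups, where over all tested features 0.927% were lower and 1.17% higher. In STZ rats 3 of 4 tested intercalated cell genes were lower, with 475 to 775 normalized counts summed over the list in control and 176 to 241 in STZ rats, although Slc4a1 did not pass with any single library left out (adjusted p 0.0533 to 0.107) and Atp6v0d2 had an adjusted p of 0.055 by limma without STZ replicate 2. Of the thick ascending limb genes 2 of 3 passed as lower, with a summed range of 1099 to 1886 in control and 210 to 597 in STZ rats. Foxi1 and Slc12a1, the remaining tested genes of the intercalated cell and thick ascending limb lists, also had every STZ value below every control value. Their log2 fold changes of −1.03 and −1.47 did not pass (adjusted p = 0.201 and 0.0732 by limma). Of the endothelial genes 1 of 4 was lower, Emcn, and the list summed to 6744 to 8753 and 3453 to 3871. Most of that sum was Emcn (5510 ± 892 and 2095 ± 132 normalized counts, SD, n = 3 each). Cdh5 and Tek had log2 fold changes of −0.56 and −0.61 that did not pass (adjusted p = 0.163 and 0.156 by limma). Pecam1 had 0.04 (adjusted p = 0.972 by limma). Tagln, an actin-binding protein of smooth muscle, was higher (222 ± 36.9 and 558 ± 22.6 normalized counts, SD, n = 3 each), and 1 of 3 smooth muscle genes passed, the list summing to 209 to 294 and 571 to 601. Of these 3 genes Tagln alone had a higher mean in STZ rats. Actg2, a smooth muscle actin, had 8.2, 4.58 and 13.4 normalized counts in the control libraries and 2.79, 0.989 and 4.02 in the STZ libraries, with every STZ value below every control value and a log2 fold change of −1.43, which limma placed at an adjusted p of 0.41. Actg2 had at most 12 reads per library and was above the olfactory receptor percentile in control replicates 1 and 3 and STZ replicate 1 only. Des, the muscle intermediate filament, had a log2 fold change of −0.23 (adjusted p = 0.858 by limma), and so had the median of the 3 genes.

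Among fibroblast genes 1 of 4 passed, Pdgfra, a growth factor receptor. Its adjusted p by limma was 0.0706 to 0.173 in 5 of the 6 fits with a library left out (0.012 without control replicate 3). The fibroblast list summed to 7327 to 8945 and 4612 to 10653, and most of that sum was Dcn (7619 ± 808 and 6379 ± 2955 normalized counts, SD, n = 3 each). By limma 0 of 7 principal cell genes passed (5 at an unadjusted p under 0.05, 0 by edgeR and 2 by DESeq2), with sums of 32773 to 54600 and 42665 to 81715. Over all tested features 14.7% had an unadjusted p under 0.05. Of the 5 genes, Aqp2, Aqp3, Scnn1b and Scnn1g had log2 fold changes of 0.84, 0.91, 0.79 and 0.93, and Hsd11b2 had −0.83. In the proximal tubule, adipocyte and leukocyte lists 0 of 2, 0 of 3 and 0 of 5 passed by limma, with 0 at an unadjusted p under 0.05 and 0 by edgeR and DESeq2, the last giving no adjusted p for 2 of the adipocyte and 3 of the leukocyte genes. Of the adipocyte markers, which bear on Pparg, Lep was at 0 in all 6 libraries and Plin1, listed as Plin, was between 0 and 6.68 normalized counts. Adipoq, the fat cell hormone adiponectin, had 1.03, 6.10 and 8.90 normalized counts in the control libraries and 7.43, 9.89 and 12.05 in the STZ libraries, which overlap, and a log2 fold change of 1.02 (SE 0.69) that did not pass (adjusted p = 0.563 by limma). Cidec, given above among the PPAR gamma targets, lay lower in the STZ libraries. Adipoq and Cidec had at most 12 and 11 reads per library. The adipocyte list summed to 411 to 1061 in control and 469 to 615 in STZ rats. Most of that sum was Fabp4 (659 and 509 normalized counts on average). Leukocyte genes summed to 101 to 213 and 158 to 208, and proximal tubule genes to 14.4 to 63.4 and 17.6 to 59.2. The part of these cell types in the values of Upk3a, Upk1b and Pparg was not tested.

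**Figure D5:**
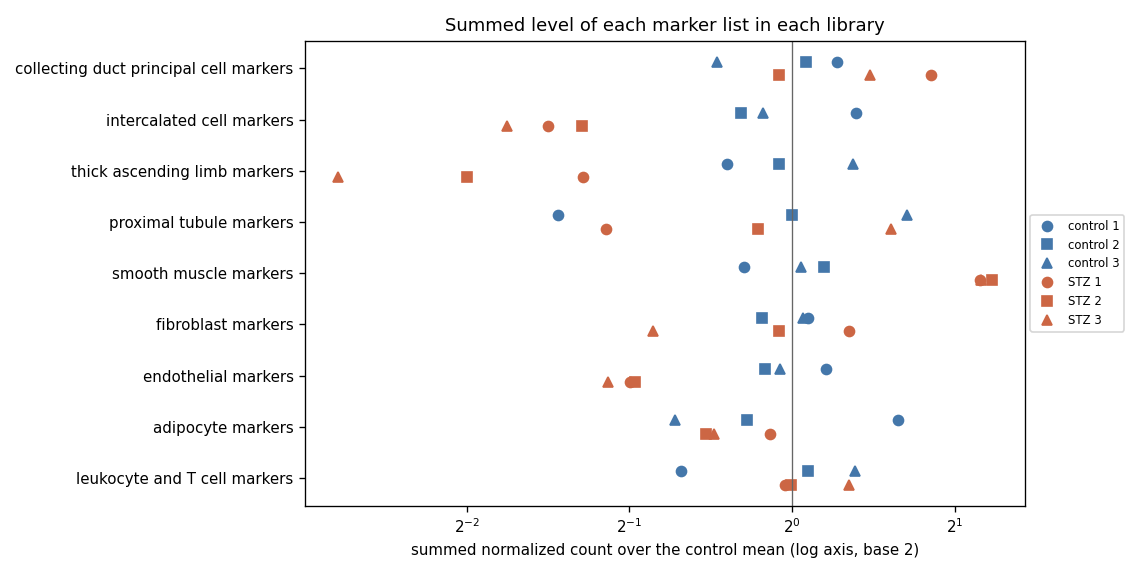
Summed normalized count of each marker list in each library, divided by the mean of the 3 control libraries (x axis, log scale of base 2), in blue for control and orange for STZ with a symbol per replicate. The STZ libraries of the intercalated cell, thick ascending limb and endothelial lists lie below, and those of the smooth muscle list above, all control libraries. The endothelial sum is mostly Emcn (5510 and 2095 normalized counts on average), while Cdh5, Tek and Pecam1 had log2 fold changes of −0.56, −0.61 and 0.04. The smooth muscle sum is mostly Tagln (222 and 558 normalized counts on average), while Actg2 and Des had negative log2 fold changes (−1.43 and −0.23). Actg2 had at most 12 reads per library.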

How the data were processed

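RNA-seq covered the IM tip in 3 control and 3 STZ libraries. The authors aligned reads to rn4 with STAR 2.3.1t, counted uniquely mapped reads per gene of Ensembl RGSC3.4 and divided them by a DESeq 1.16.0 size factor per library, so the deposited signal is a normalized count for each of 27321 features. Neither the program that counted reads nor whether strand was used is given in the sources used here. Columns were matched to samples through the library name in the labels. Every value was a whole multiple of 1 step per library (tolerance 1e-06), so whole reads were recovered for 100% of the values. Reads are PCR products without molecular identifiers.

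Limma 3.58.1 in R 4.3.3 was fitted with an intensity trend on log2(normalized count + 1) over 13486 features whose mean reached 5, adjusted by Benjamini-Hochberg at a threshold of 0.05, in place of the authors' count model, since the values are normalized. Alternatives on the recovered reads were edgeR 4.0.16 (quasi-likelihood, TMM) and DESeq2 1.42.0. Other alternatives changed the pseudocount to 0.5 or 5 and the minimum mean to 1, 20 or 0, and used equal library totals, quantile normalization, no intensity trend, robust moderation, the replicate block and each library left out. The fits were tested on simulated data. Genes named are all members, list genes that passed or were among the highest in mean, nearest neighbours and the 5 features most like Upk3a, and some others were chosen after their values were seen. The members and lists were chosen with earlier results of these data known. List genes were matched by name or RefSeq synonym. Python 3.11.15, pandas 2.3.3 and matplotlib 3.10.9 made the tables and figures.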

Additional observations from a re-analysis of the deposited data

How the results depend on the processing

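Upk3a passed in all 18 alternatives run for it, with a log2 fold change from 3.16 to 3.57, Pparg in 17 and Upk1b in 10, each of 18, and no alternative gave a call to another member (16 run for Upk2, Upk3b and Tp63). The number of members called was 3, 2 (Upk3a and Pparg) with a minimum mean of 1, equal library totals or any library but control replicate 3 left out, and 1 (Upk3a) for limma without the intensity trend, which called 31 features in all. Over all features the count was 283 and moved to 522 with quantile normalization, 597 with DESeq2 and 561 with the replicate block, and ran from 88 to 352 with a library left out. The cause of these moves was not tested. With a library left out, the log2 fold change ran from −0.33 to 0.51 for Upk1a, from −0.39 to 0.17 for Grhl3 and from −0.41 to 1.13 for Tp63, which crosses 0 in each. Without the intensity trend, limma also lost every call named among list and marker genes, namely Klf4, Lpl, Umod, Egf, Tagln, Emcn, Atp6v1b1, Atp6v0d2, Slc4a1 and Pdgfra (adjusted p 0.0577 to 0.179). Both groups carry the numbers 1 to 3 and no label pairs them. Deviations of same-numbered libraries correlated with r = 0.57, −0.01 and 0.50 across genes, 4 of 6 libraries correlated best with their own number, and the replicate block changed no member's call. Upk2, Upk3b and Tp63, with 39 to 73 reads over 6 libraries, have the fewest reads among the members, and the parts of depth and of spread between libraries in their intervals were not separated.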
